A study of Mus musculus with 4 samples.

Results

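The genes described here encode the nuclear subunits of the mitochondrial respiratory chain and of ATP synthase, in cultured primary satellite cells of mouse muscle. They were chosen by gene symbol (Nduf, Sdh, Uqcr, Cyc1, Cox and Atp5 families) and kept where the mean level over all 4 libraries reached 1 FPKM or more (fragments mapped to a gene, scaled by transcript length and by library depth). The symbols matched 85 of the 23351 rows of the gene table, and 80 passed, out of 11201 rows at or above that mean. Complex I had 35 of the 80, complex II 4, complex III 9, complex IV 15 and complex V 17. ERβ scKO libraries came from mice whose satellite cells lack estrogen receptor β (encoded by Esr2), and Control libraries from Control mice. Each group had 2 libraries here, although the series text speaks of triplicates. All mice were C57BL/6 and 6 to 8 weeks old, the series title says young females, and all cells were derived from extensor digitorum longus muscle. The promoter that drives the deletion, the genotype of the Control mice and whether each library stands for a single animal are not given in the sources used here. The p-values below therefore measure only the spread between these libraries, which may be technical.

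The respiratory chain sits in the inner mitochondrial membrane. Complex I takes electrons from NADH and complex II takes them from succinate, and both pass them to ubiquinone. Complex III hands them to cytochrome c, complex IV gives them to oxygen, and complexes I, III and IV pump protons. Complex V, the ATP synthase, lets the protons flow back and makes ATP. Most subunits are encoded in the nucleus and the rest in mitochondrial DNA. Several complex IV subunits have a heart and muscle isoform (Cox6a2, Cox7a1, Cox8b) that takes over from a ubiquitous isoform (Cox6a1, Cox7a2, Cox8a) in differentiated striated muscle.

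The spacing of low FPKM values put the depth at about 2800000 and 2900000 fragments in the ERβ scKO libraries and 2500000 and 3000000 in the Control libraries. Esr2 was listed at 0 in both ERβ scKO libraries and at 0.234 and 0.202 FPKM in the Control libraries, too low to check the deletion firmly. Myoblast markers fitted the labelled cell type: Pax7 was at 10.4 and 10.7 FPKM in ERβ scKO and 10.7 and 10.5 in Control, and Myod1 at 368 and 327 against 385 and 315. Markers of myotubes, the fused muscle fibres that myoblasts form, were present too: the 12 genes summed to 4900 and 5831 FPKM in ERβ scKO and 3441 and 5144 in Control. Control replicate 1 stood apart from the other libraries, with the lowest myotube sum and the highest summed level of 7 fibroblast markers (188 FPKM, against 123 and 109 in ERβ scKO and 126 in Control replicate 2). Its values also ran with the GC content of the transcript, so ratios without it are given beside those whose sign or size it set. Malat1 and Neat1, nuclear RNAs, had higher values in the ERβ scKO libraries than in the Control libraries, without overlap (log2 ratios 0.78 and 0.67). Without Control replicate 1 the ratios were 0.41 and 0.58. Of all genes with a mean of 1 FPKM or more, 18.3% were separate in this direction. The limma test on log2(FPKM + 1) gave each an adjusted p of 0.837, and the authors' deposited table gives q-values of 0.129 and 0.448.

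The respiratory chain genes were among the abundant transcripts of these cells, and the complexes differed more from each other than the groups did. Members had a median level of 150 FPKM, against 12.9 FPKM over all expressed genes, those with a mean of 1 FPKM or more. Median levels over the members were 102 FPKM for complex I, 133 for complex II, 163 for complex III, 283 for complex IV and 306 for complex V. Atp5b (chr10:128083307-128090388, mm10), the catalytic β subunit of ATP synthase, was the highest member, at 1015 and 1007 FPKM in ERβ scKO and 1044 and 1084 in Control. Next came Atp5g3, a gene for the c subunit of the proton-driven rotor, with a mean of 744 FPKM over all libraries. Ndufa4, first assigned to complex I and now counted in complex IV, followed at 673 FPKM, and Cox6b1 at 634 and Uqcrh at 629 stood close below it. The library values of each of these genes from Atp5g3 down overlapped with those of the next, so their order is not resolved. The lowest members were Atp5s (5.27 FPKM), Atp5sl (5.86), Cox6a2 (6.70), Cox6b2 (8.21), Cox8b (9.18) and Ndufa11 (11.5). Below the limit of 1 FPKM lay 5 genes, all of complex IV. Cox4i2, Cox7b2, Cox8c and Ndufa4l2 were listed at 0 in all 4 libraries, and Cox7a1 had a mean of 0.823 FPKM.

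**Figure D1:**
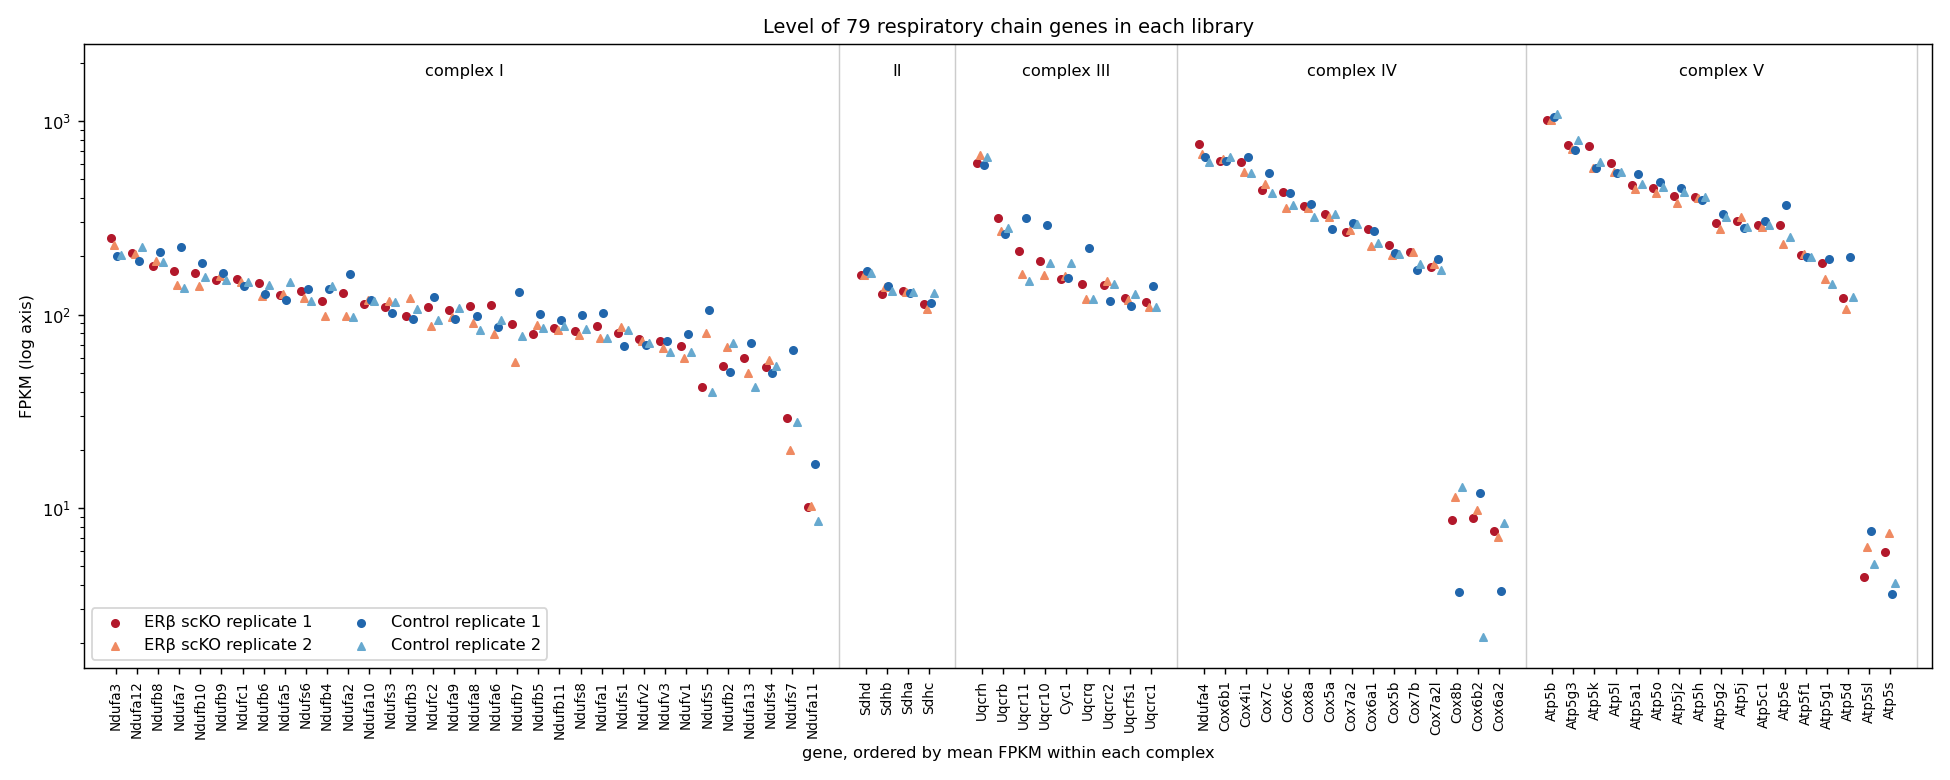
FPKM of 79 of the genes (log axis) in each of the 4 libraries, by complex and ordered by mean within it. In most genes the 4 points lie close together, and the low isoforms Cox8b, Cox6b2 and Cox6a2 and the pair Atp5s and Atp5sl stand far below the rest of their complexes.

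As a group the members were at nearly the same level in ERβ scKO and in Control cells. Together they held 3.21% and 3.14% of all FPKM in the ERβ scKO libraries and 3.21% and 3.13% in the Control libraries. The log2 ratio of ERβ scKO over Control means, taken on log2(FPKM + 1), had a median of −0.02 over the 80 members and −0.005 over all 11201 genes. A higher mean in ERβ scKO was found for 35 members and a lower one for 45. The ratio lay within 0.2 of 0 in 62 members (77.5%), against 63.6% of all genes and 76.6% of 611 other genes of like level and transcript length. The groups were separate in 21 members, with both ERβ scKO values above the Control values in 9 and below them in 12. Over all genes 18.3% lay above and 18.3% below, so neither count exceeded the background. The limma test on log2(FPKM + 1) called 0 of the 80 at a Benjamini-Hochberg adjusted p of 0.05, against 4 of all genes (0.0357%), and the lowest adjusted p of a member was 0.837. At an unadjusted limma p under 0.05 there were 3 members, Ndufb4, Cox7b and Atp5s, where the share over all genes was 4.62%. The authors' deposited table called 0 members at a q under 0.05 and 0 at a p under 0.05 (over all rows they tested, 0% and 3.25%). The limma 95% interval of the difference lay inside a 2-fold change either way in 71 of the 80 members. Its half-width had a median of 0.29 and reached 1.55 on the log2 scale, so smaller changes were not detectable in the genes with wide intervals. These were genes whose libraries differed within a group, at low levels (Cox6b2, Cox8b) and at higher ones (Ndufs5, Ndufs7).

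Differences between replicates were set beside the difference between groups. The median absolute log2 difference over members was 0.11 between the group means, 0.12 between the ERβ scKO libraries and 0.19 between the Control libraries. The group difference was smaller than the difference between the Control libraries in 59 of 80 members and in 65.3% of all genes. A difference between means is the smaller of these also where nothing changes. Control replicate 1 was the highest library in 39 of the 80 members, where it was the highest in 34.3% of all genes. Without it the median over members was 0.02, and 31 of the 80 log2 ratios changed sign. In bulk RNA, fewer cells of a type and less RNA per cell cannot be told apart.

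**Figure D2:**
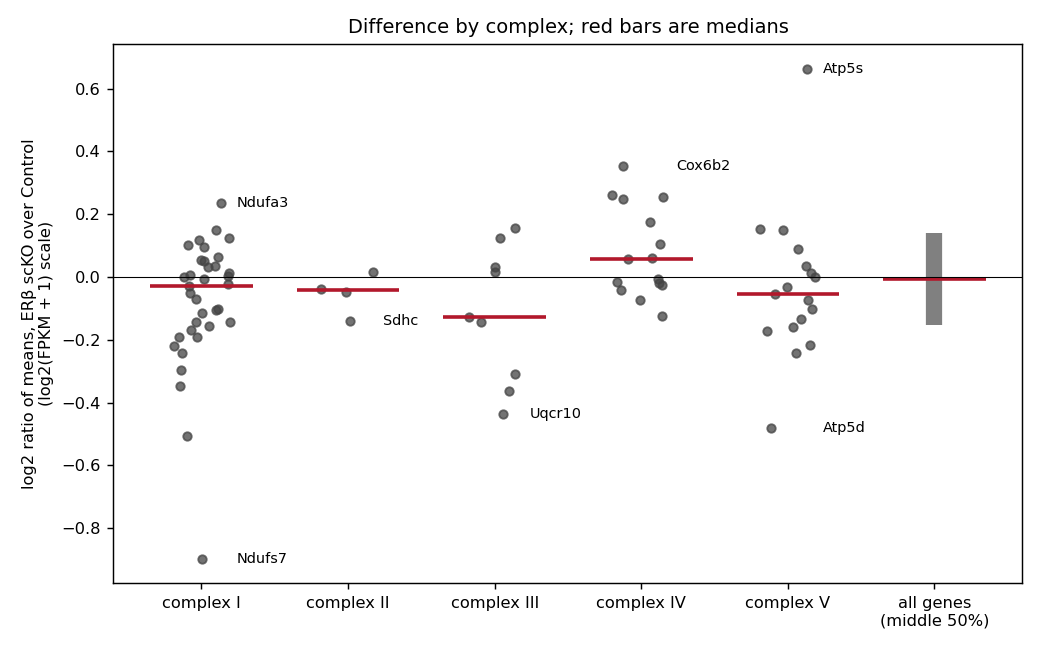
Log2 ratio of ERβ scKO over Control means on the log2(FPKM + 1) scale, each point a gene, by complex, with the median of each complex as a red bar; the grey bar spans the middle 50% of all 11201 genes. The medians lie between −0.13 and 0.06, and Ndufs7 and Atp5s are the lowest and the highest of all members.

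Complex I had 15 members with a higher and 20 with a lower mean in ERβ scKO, with a median log2 ratio of −0.03 (0.02 without Control replicate 1). Its core subunits carry the flavin and the iron-sulfur clusters. Ndufs1, the large iron-sulfur subunit, was at 79.9 and 86.6 FPKM in ERβ scKO and 69.2 and 83.4 in Control, overlapping groups with a log2 ratio of 0.12 (−0.0022 without Control replicate 1). Ndufv1, which binds NADH, was at 68.7 and 59.9 FPKM in ERβ scKO, against 79.7 and 63.8 in Control, a log2 ratio of −0.16 that was 0.011 without Control replicate 1. The accessory subunit Ndufa9 was at 106 and 96.8 FPKM in ERβ scKO and 95.01 and 109 in Control, a log2 ratio of −0.006 (−0.10 without Control replicate 1).

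Ndufs7, a core iron-sulfur subunit near the ubiquinone site, had the lowest ratio of all members. It was at 29.3 and 19.96 FPKM in ERβ scKO, against 65.7 and 27.8 in Control. A single library, Control replicate 1, was high, and the Control value of 27.8 lay between the ERβ scKO values. The log2 ratio was −0.90, with a limma adjusted p of 0.837 and a mean that was lower in ERβ scKO; without Control replicate 1 it was −0.17. In the deposited table its locus (chr10:79697305-80369637, mm10) is shared by 46 rows, Atp5d among them. Genes that overlap or are merged there are uncertain, since reads may have been split between them.

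At the other end of complex I, the accessory subunit Ndufa3 was at 249 and 228 FPKM in ERβ scKO and 202 and 203 in Control. Both ERβ scKO libraries were higher, the log2 ratio was 0.23 and the limma adjusted p 0.837. Ndufv2, a core iron-sulfur subunit named after its values were seen, also lay higher in both ERβ scKO libraries, by 0.06 on the log2 scale. Both libraries were lower for Ndufb4, Ndufb11 and Ndufs8, all named after their values were seen. Ndufb4 (chr16:37647602-37654368), an accessory subunit of the membrane arm, was at 118 and 98.4 FPKM in ERβ scKO and 136 and 140 in Control. Its log2 ratio of −0.35 had the same sign without any single library (−0.37 without Control replicate 1), yet its limma adjusted p was 0.837.

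Complex II, the succinate dehydrogenase of the citric acid cycle, varied least. All 4 genes had log2 ratios within 0.2 of 0, with a median of −0.04. Sdha, the flavoprotein that oxidises succinate, was at 132 and 130 FPKM in ERβ scKO and 129 and 130 in Control. These differ by 0.02 on the log2 scale, with both ERβ scKO values just above both Control values. Sdhb, the iron-sulfur subunit, was at 128 and 138 FPKM in ERβ scKO and 141 and 132 in Control, with overlapping groups and a log2 ratio of −0.04 (0.01 without Control replicate 1). Of the membrane anchors, Sdhc was at 113 and 107 FPKM in ERβ scKO, against 115 and 129 in Control, a log2 ratio of −0.14 and the lowest of the complex. Sdhd, the other anchor and the most abundant of the 4, was at 159 and 161 FPKM in ERβ scKO and 167 and 164 in Control (−0.05). Both ERβ scKO libraries were lower than both Control libraries for each anchor, with limma adjusted p of 0.838 and 0.916.

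Complex III had the lowest median of the complexes, −0.13, with 4 of its 9 members higher and 5 lower in mean, and no member with separate groups. That median rested on having both Control libraries: it was 0.02 without Control replicate 1 and 0.008 without Control replicate 2, while between the replicate 1 and the replicate 2 libraries alone it was −0.015 and −0.0023. Among the subunits with a redox centre, Cyc1, cytochrome c1, was at 153 and 158 FPKM in ERβ scKO and 155 and 186 in Control. Uqcrfs1, the Rieske iron-sulfur protein, was at 122 and 119 FPKM in ERβ scKO and 111 and 128 in Control. Their log2 ratios were −0.13 and 0.02, and in both genes the groups overlapped. The ratios were −0.25 and −0.08 without Control replicate 1, and 0.008 and 0.12 without Control replicate 2.

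The core proteins of complex III, Uqcrc1 and Uqcrc2, had ratios of opposite sign only with Control replicate 1 included. Uqcrc1 was at 117 and 109 FPKM in ERβ scKO and 141 and 109 in Control (log2 ratio −0.14), and Uqcrc2 at 142 and 150 FPKM in ERβ scKO and 118 and 144 in Control (0.16). In each gene the odd library was Control replicate 1, high for Uqcrc1 and low for Uqcrc2, and without it the ratios were 0.05 and 0.02. Uqcrh, the hinge protein near cytochrome c1, was the most abundant member, at 607 and 665 FPKM in ERβ scKO and 593 and 650 in Control. Uqcr10, a small accessory subunit, had the lowest ratio: it was at 189 and 161 FPKM in ERβ scKO, against 289 and 184 in Control. Its log2 ratio was −0.44 (−0.07 without Control replicate 1), its limma adjusted p was 0.837 and the authors' deposited table gives a p of 0.0588. The small subunits Uqcrq and Uqcr11, named after their values were seen, showed the same single high library, at 221 and 314 FPKM in Control replicate 1.

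Complex IV, cytochrome c oxidase, was the only complex with a positive median (0.06), a sign it lost between the replicate 2 libraries alone (−0.03) and without Control replicate 2 (−0.05). Means were higher in ERβ scKO for 8 of 15 members and lower for 7. Its members held 0.862% and 0.846% of all FPKM in ERβ scKO and 0.833% and 0.805% in Control, so these shares did not overlap. The summed FPKM themselves did overlap, at 4743 and 4481 in ERβ scKO and 4698 and 4355 in Control. With 2 libraries against 2 an exact permutation test cannot give a p under 0.333, and none was run on the shares. Complex I held 0.695% and 0.684% in ERβ scKO and 0.720% and 0.679% in Control, and complex V 1.19% and 1.15% against 1.17% and 1.19%, with overlapping groups in both. The shares of complexes II and III overlapped too.

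Among the ubiquitous complex IV subunits, Cox4i1, a regulatory subunit, was at 613 and 544 FPKM in ERβ scKO and 654 and 536 in Control (log2 ratio −0.04, and 0.11 without Control replicate 1). Cox5a was at 333 and 319 FPKM in ERβ scKO and 275 and 330 in Control (0.11, and −0.02 without Control replicate 1), and Cox5b at 229 and 202 against 207 and 206 (0.06). All 3 had overlapping groups. Ndufa4 was the most abundant member and one of those with separate groups, at 757 and 672 FPKM in ERβ scKO and 651 and 613 in Control, a log2 ratio of 0.18 with a limma adjusted p of 0.837. Cox7b, a small membrane subunit named after its values were seen, was also higher in both ERβ scKO libraries, at 210 and 211 FPKM, against 171 and 182 in Control. Its log2 ratio of 0.25 kept its sign without each single library, and its limma adjusted p was 0.837. Cox7a2 was the single member that was lower in both ERβ scKO libraries, at 268 and 273 FPKM, against 296 and 294 in Control (−0.12).

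Complex V had 7 members with higher and 10 with lower means, with a median of −0.06. The subunits of its catalytic F1 head all had lower means in ERβ scKO, with a median of −0.13 over the 5 genes (−0.05 without Control replicate 1, where Atp5e turned to 0.05). Atp5a1, the α subunit, was at 469 and 443 FPKM in ERβ scKO and 530 and 471 in Control (log2 ratio −0.13, and −0.05 without Control replicate 1). Atp5b, whose levels are given above, had a log2 ratio of −0.07, and like Atp5a1 it was lower in both ERβ scKO libraries. Atp5c1, the γ subunit of the central stalk, was at 290 and 282 FPKM in ERβ scKO and 305 and 290 in Control (−0.06), with groups that met at 290. Atp5d, the δ subunit, had the lowest ratio of the complex: 123 and 107 FPKM in ERβ scKO, against 198 and 123 in Control. The log2 ratio was −0.48 and the limma adjusted p 0.837, and without Control replicate 1 the ratio was −0.10. None of the 5 was called by limma or by the authors' deposited table.

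The other groups of complex V subunits went both ways. The 4 genes of the peripheral stalk and its neighbours (Atp5f1, Atp5h, Atp5j and Atp5o) had a median log2 ratio of 0.02, and the 3 small membrane subunits (Atp5j2, Atp5k and Atp5l) 0.09. The c subunit of the rotor is encoded by 3 genes that give the same mature protein. Atp5g2 was lower in both ERβ scKO libraries, at 297 and 277 FPKM, against 330 and 318 in Control (log2 ratio −0.17). Atp5g1 was at 185 and 153 FPKM in ERβ scKO and 194 and 143 in Control, and Atp5g3 at 754 and 719 against 707 and 797, both with overlapping groups. Of the summed level of the 3 genes, Atp5g2 held 24.1% and 24.1% in ERβ scKO and 26.8% and 25.3% in Control (exact permutation p = 0.333, two-sided, the smallest this design allows).

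Atp5s (chr12:69724962-69744658, mm10) had the highest ratio of all members. It was long named for a coupling factor of ATP synthase and has since been renamed Dmac2l, so it is counted here in complex V by its symbol alone. It was at 5.91 and 7.47 FPKM in ERβ scKO, against 3.62 and 4.08 in Control. The groups were separate, and the log2 ratio was 0.66, between 0.60 and 0.73 with either Control library left out. The limma adjusted p was 0.837 and the authors' deposited table gives a p of 0.07. At this level the values rest on at most 26 and 35 fragments in ERβ scKO and 14.7 and 19.3 in Control, from the estimated depth and the longest annotated transcript. Atp5sl, likewise kept by its symbol, was at 4.42 and 6.28 FPKM in ERβ scKO and 7.61 and 5.13 in Control, with overlapping groups and a log2 ratio of −0.22 (0.05 without Control replicate 1).

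The muscle isoforms of complex IV were expressed, at a small part of the level of their ubiquitous partners. Averaged over the libraries, Cox6a1 was 37.6 times as high as Cox6a2, and Cox8a 38.3 times as high as Cox8b. Cox6a2 (chr7:128173946-128206366, mm10, a locus shared by 3 rows) was at 7.60 and 7.14 FPKM in ERβ scKO and 3.72 and 8.36 in Control. Cox8b (chr7:140898942-140900446) was at 8.70 and 11.5 FPKM in ERβ scKO and 3.68 and 12.8 in Control. In both genes Control replicate 1 was the low library and Control replicate 2 the highest of all 4, so the ERβ scKO values lay between the Control values. Cox7a1 was at 1.71 and 0 FPKM in ERβ scKO and 0 and 1.58 in Control, which stands for at most 2.29 fragments in any library. The partners varied less in proportion. Cox6a1 was at 276 and 227 FPKM in ERβ scKO and 271 and 234 in Control. Cox8a was at 362 and 356 against 372 and 318. Cox7a2, whose levels are given above, was lower in both ERβ scKO libraries.

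A share within a pair does not depend on the scaling between libraries. Cox6a2 held 2.68% and 3.05% of the FPKM of its pair in ERβ scKO, against 1.35% and 3.45% in Control. Cox8b held 2.35% and 3.13% in ERβ scKO, against 0.981% and 3.88% in Control. The means were 2.87% ± 0.268 and 2.40% ± 1.48 for Cox6a2 and 2.74% ± 0.553 and 2.43% ± 2.05 for Cox8b (ERβ scKO and Control, SD, n = 2 each, exact permutation p = 1 for each). The differences of 0.466 and 0.309 percentage points became −0.583 and −1.14 without Control replicate 1, and 1.51 and 1.76 without Control replicate 2. The sign of both differences thus turned with the Control library that was kept. The counts behind these isoforms were small, at most 16.8 fragments for Cox6a2 and 13.7 for Cox8b in any library. Like Cox6a2 and Cox8b, the summed myotube markers were lowest in Control replicate 1. Their sum was highest in ERβ scKO replicate 2, though (5831 FPKM, against 5144 in Control replicate 2), where both isoforms were highest in Control replicate 2. Of the 12 myotube markers, 11 had a higher mean in ERβ scKO, with a median log2 ratio of 0.31 that became −0.03 without Control replicate 1. Their part in the isoform values was not tested.

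**Figure D3:**
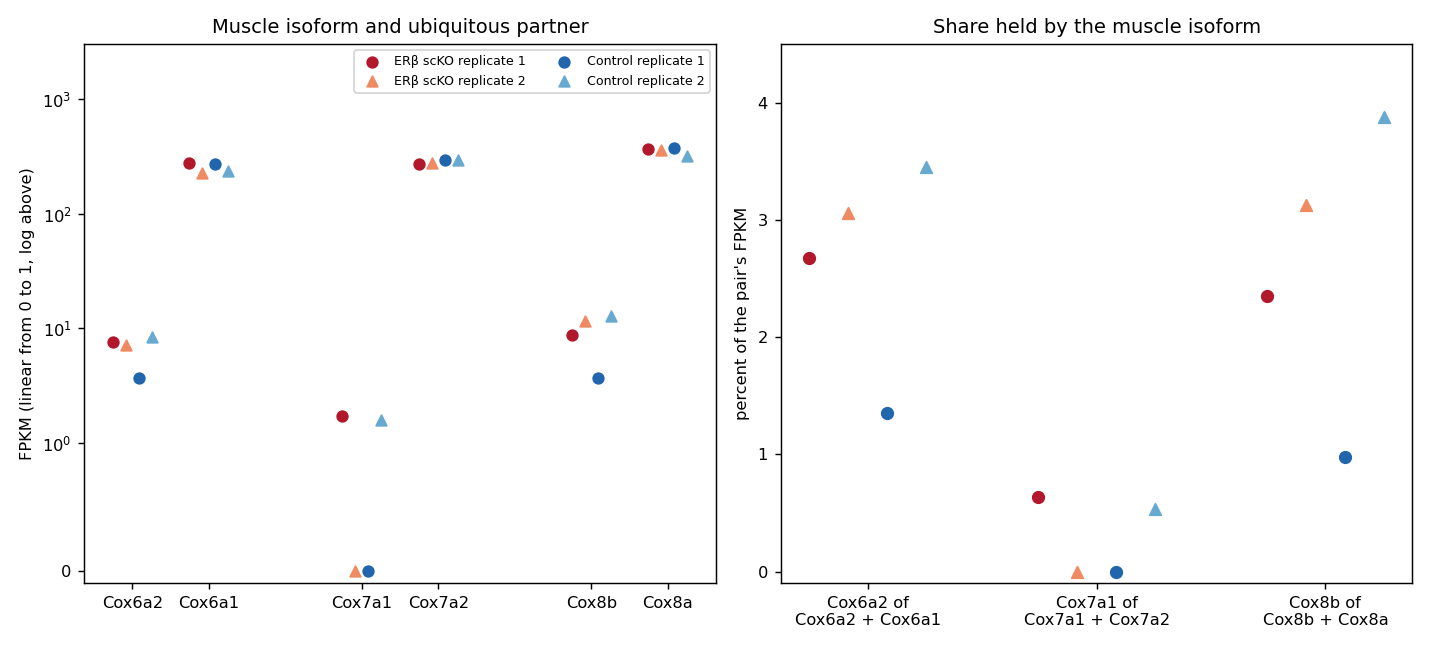
Left, FPKM of each muscle isoform and its ubiquitous partner in each library (linear up to 1, log above). Right, percent of the pair's FPKM held by the muscle isoform. For Cox6a2 and Cox8b Control replicate 1 is the lowest point and Control replicate 2 the highest, with the ERβ scKO points between them.

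The promoters of such a pair can be set side by side because Cox8b, Cox8a and Cox6a1 have a RefSeq entry (GRCm38.p6). Each stretch below runs from 150 bases before the annotated start to 2 bases after it, 5′ to 3′ on the gene's strand (minus in all 3). Capitals mark matches on either strand to CAGCTG (an E-box of the type that MyoD family factors bind), to GCGC, any base, T and GCGC without gaps (bound by NRF1, nuclear respiratory factor 1) and to CCGGAAG (bound by ETS factors such as GABP). No marked matches overlap. The stretches are Cox8b at chr7:140900445-140900596, Cox8a at chr19:7217615-7217766 and Cox6a1 at chr5:115348957-115349108.
Cox8b: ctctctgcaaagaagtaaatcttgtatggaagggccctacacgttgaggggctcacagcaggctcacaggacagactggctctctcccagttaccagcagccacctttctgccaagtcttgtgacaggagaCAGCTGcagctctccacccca
Cox8a: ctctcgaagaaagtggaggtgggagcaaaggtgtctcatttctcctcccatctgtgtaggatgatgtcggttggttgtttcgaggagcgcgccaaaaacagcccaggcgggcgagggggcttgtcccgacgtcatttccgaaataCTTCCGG
Cox6a1: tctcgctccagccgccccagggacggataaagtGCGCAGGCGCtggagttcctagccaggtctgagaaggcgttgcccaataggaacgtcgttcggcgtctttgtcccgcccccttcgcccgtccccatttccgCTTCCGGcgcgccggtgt
The E-box of Cox8b begins 19 bases before the start, the ETS match of Cox8a lies across the start, and Cox6a1 holds an NRF1 match 117 bases and an ETS match 16 bases before it. The low muscle isoform and the abundant ubiquitous ones thus carried different letters in these windows, and a match is a description of the sequence, not a measured site.

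Cox6b2, an isoform known from testis, was the complex IV member with the highest log2 ratio, 0.35. It was at 8.86 and 9.80 FPKM in ERβ scKO and 12.04 and 2.15 in Control. Here Control replicate 2 was the low library and Control replicate 1 the highest, the reverse of Cox6a2 and Cox8b, and the ratio was 1.71 without Control replicate 1 and −0.34 without Control replicate 2. The limma adjusted p was 0.846. Its ubiquitous partner Cox6b1 was at 622 and 638 FPKM in ERβ scKO and 624 and 653 in Control, a log2 ratio of −0.02.

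The genes whose profile over the 4 libraries lay nearest to that of Cox6a2, by summed distance of log2(FPKM + 1) after centring each gene, were Crabp2, Glt28d2, 2210015D19Rik, Abhd14b and Sypl2. Their distances were 0.119 to 0.182, over 4 libraries only. Crabp2, the nearest and a carrier of retinoic acid, was at 12.5 and 12.2 FPKM in ERβ scKO and 6.50 and 14.7 in Control. Like Cox6a2, it was lowest in Control replicate 1 and highest in Control replicate 2.

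Several low ratios in complexes I, III and V had a high library in common, though not that of Ndufb4. Control replicate 1 was over 1.3 times each other library in 9 of the 80 members (8.52% of all genes), a limit set after the values were seen. These were Ndufa7, Ndufa11, Ndufb7, Ndufs5 and Ndufs7 of complex I, Uqcr10, Uqcr11 and Uqcrq of complex III, and Atp5d of complex V. Ndufs5, a small accessory subunit, was the least stable of them, at 42.5 and 80.5 FPKM in ERβ scKO and 106 and 39.6 in Control. Its log2 ratio was −0.24, and 0.62 without Control replicate 1. The locus of Ndufs5 is shared by 2 rows, as are those of Atp5b, Ndufs1 and Uqcrc2, among others. Ndufb7, an accessory subunit with the lowest authors' p of the members (0.0525), was at 89.3 and 56.8 FPKM in ERβ scKO, against 131 and 77.7 in Control. Its log2 ratio was −0.51, and −0.09 without Control replicate 1.

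The transcripts of these 9 genes had a median GC content of 58.2%, against 51.5% over the members and 50.3% over all genes. Across 79 members with an annotated transcript, the deviation of Control replicate 1 from the gene's mean had a Pearson r of 0.44 with GC content (Spearman rho 0.49). For ERβ scKO replicate 2 it was −0.44 (−0.41), for ERβ scKO replicate 1 −0.05 (−0.09) and for Control replicate 2 −0.20 (−0.28). Genes are not independent replicates, and these values describe the libraries. Over 10265 genes r was 0.50 for Control replicate 1, so the relation was not confined to the members. The 40 members at or above the median GC content had a median log2 ratio of −0.09 (0.01 without Control replicate 1), and the 39 below it 0.007 (0.02). With each library's trend on GC content removed, a setting added after seeing the data, the medians were −0.030 for complex I, −0.016 for complex II, −0.016 for complex III, 0.11 for complex IV, −0.030 for complex V and −0.012 for all members.

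**Figure D4:**
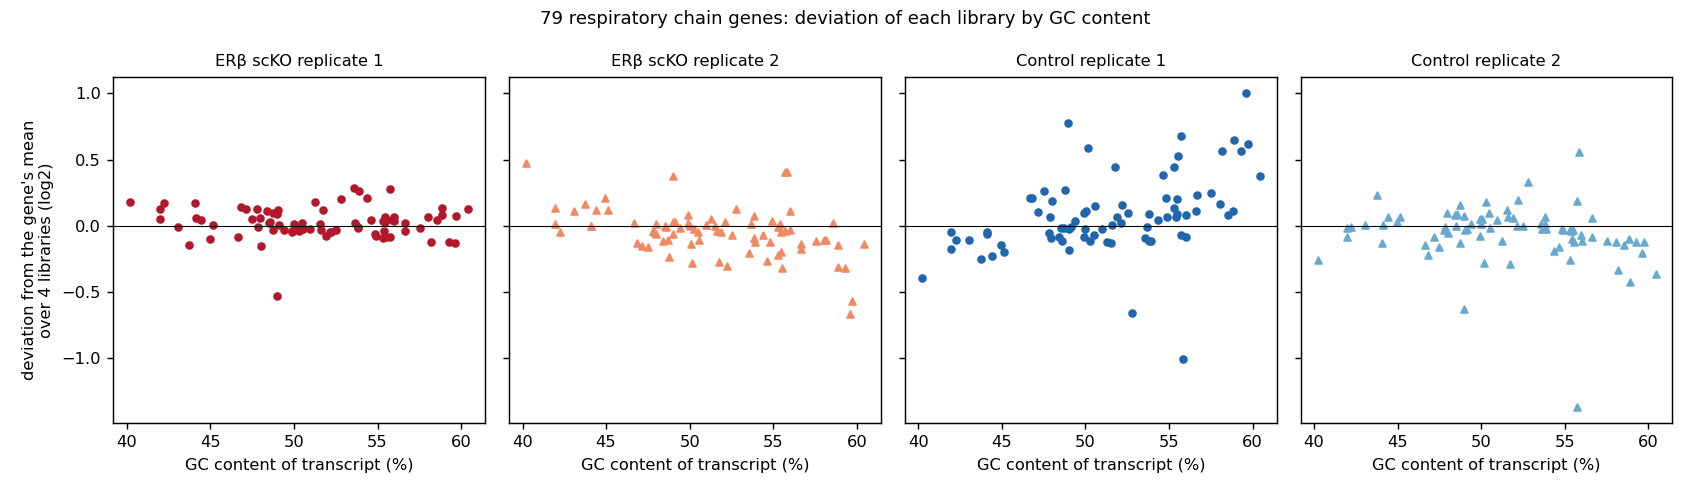
Deviation of each library from the gene's mean over 4 libraries (log2) against the GC content of the transcript, for 79 respiratory chain genes. The points of Control replicate 1 climb with GC content (r 0.44), those of ERβ scKO replicate 2 fall (r −0.44), and those of ERβ scKO replicate 1 stay level (r −0.05).

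Other genes that serve the chain were set beside it. The 5 further parts of the complexes that the symbols miss (Ndufab1, Usmg5, Atpif1, Higd1a and Higd2a) had a median log2 ratio of −0.04, with 1 higher and 4 lower. Of 44 assembly factors, which build the complexes without staying in them, 39 were measured, with a median of 0.07, 26 higher and 13 lower. Ndufaf6, a factor for complex I, had the highest ratio (0.48) and was at 6.67 and 8.69 FPKM in ERβ scKO and 5.61 and 4.84 in Control. Cox16, a factor for complex IV, had the lowest (−0.47), at 6.10 and 6.59 FPKM in ERβ scKO and 8.83 and 9.52 in Control. In both genes the groups were separate, as in 8 higher and 6 lower of the 39 (18.3% each over all genes), and both had a limma adjusted p of 0.837. The copper chaperone Cox17, the most abundant factor with a mean of 105 FPKM, had a log2 ratio of −0.18 (0.40 without Control replicate 1).

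Regulators of mitochondrial genes had a median of −0.13 over 16 measured of 20, with 4 higher and 12 lower, and −0.10 without Control replicate 1. Ppard, a fatty acid sensing nuclear receptor, had the lowest ratio (−0.65), at 3.10 and 4.05 FPKM in ERβ scKO and 8.55 and 3.84 in Control. The authors' deposited table gives it a p of 0.0191, and without Control replicate 1 the ratio was −0.08. Tfb1m, which methylates mitochondrial ribosomal RNA, had the highest (0.42, and 0.04 without Control replicate 1), and Yy1 the highest level, with a mean of 36.2 FPKM. Ppargc1a, a coactivator that drives mitochondrial biogenesis, was low throughout, at 1.93 and 1.36 FPKM in ERβ scKO and 1.11 and 1.16 in Control. Nrf1 was at 14.5 and 11.1 FPKM in ERβ scKO and 13.8 and 14.6 in Control. These last 2 genes were named after their values were seen.

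The carriers and transporters had a median of −0.02 (8 of 19 higher), from Etfdh at 0.29 to Coq7 at −0.26 (0.24 and 0.29 without Control replicate 1), and Slc25a5, an ADP/ATP carrier, was the most abundant at 600 FPKM. The citric acid cycle had a median of −0.04 (7 of 16 higher). Idh2, the NADP-dependent isocitrate dehydrogenase, was lower in both ERβ scKO libraries, at 92.0 and 96.6 FPKM, against 135 and 115 in Control. Its log2 ratio was −0.40, with a p of 0.0426 in the authors' deposited table and a limma adjusted p of 0.837. Dld had the highest ratio of that list (0.24, and 0.09 without Control replicate 1) and Mdh2 the highest level (402 FPKM).

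The mitochondrial ribosomal proteins, which serve translation of the subunits encoded in mitochondrial DNA, had a median of −0.12 over 76 genes, with 22 higher and 54 lower. The groups were separate in 30 of them, with ERβ scKO lower in 24 and higher in 6 (18.3% each over all genes). Without Control replicate 1 the median was −0.03. Mrps17 had the lowest ratio (−0.58), at 32.9 and 32.1 FPKM in ERβ scKO and 50.3 and 48.0 in Control. Its groups were far apart and it was at −0.55 without Control replicate 1, yet the limma adjusted p was 0.837. Mrpl55 had the highest ratio (0.28, and 0.84 without Control replicate 1). The limma test called 0 genes in each of these lists. None of the 13 symbols searched for subunits encoded in mitochondrial DNA was among the rows of the gene table, so these subunits were not analysed here. Of 7 markers of brown and white fat cells, Ucp1, Adipoq and Plin1 were listed at 0 in all 4 libraries. Another 3 were detected with means from 1.26 to 2.93 FPKM. The 7 summed to 7.42 and 6.09 FPKM in ERβ scKO and 9.43 and 6.57 in Control. The 4 endothelial markers summed to 1.12 to 3.26 FPKM over the 4 libraries.

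Promoter sequence is a feature that the choice of members had not used. RefSeq windows (GRCm38.p6) that reach from 250 bases before to 50 after the start were found for 64 of the 80 genes, in 69 windows. NRF1 is a transcription factor known for controlling many respiratory chain genes. A match to its letters, on either strand, was in 18 of the 69 windows (26.1%), against 10.4% of 10759 windows of expressed genes and 4.60% of all 32851 windows. By complex, the match was in 8 of 33 windows of complex I, 2 of 3 of complex II, 1 of 5 of complex III, 1 of 12 of complex IV and 6 of 16 of complex V. The ETS letters CCGGAAG were in 23.2% of member windows, 18.2% of windows of expressed genes and 8.86% of all windows. The SP1 letters GGGCGG were in fewer member windows (37.7%) than windows of expressed genes (64.1%), and the E-box letters CAGCTG in 8.70% against 15.4%.

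The sites below are examples of the NRF1 matches in complexes I, II and V. Their capitals are alike because the search fixed all but a single base. Each line gives 30 bases on the gene's strand (minus in all), with the match in capitals and 10 bases on either side. Ndufb4 is shown since it has 3 matches, Sdha since it has 2, and Atp5g2 since its groups were separate. Cox6a1 of complex IV also has 2, at 162 and 117 bases before the start, and the stretch printed above holds only the latter. In the order printed, the sites lie at chr16:37654540-37654569, chr16:37654428-37654457, chr16:37654371-37654400, chr13:74350319-74350348, chr13:74350276-74350305 and chr15:102671070-102671099.
Ndufb4, 191 bases before the start: gagaagcagtGCGCACGCGCagaatacgcg
Ndufb4, 79 bases before the start: ccttgtgcgcGCGCAGGCGCacttcctgag
Ndufb4, 22 bases before the start: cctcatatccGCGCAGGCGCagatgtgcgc
Sdha, 98 bases before the start: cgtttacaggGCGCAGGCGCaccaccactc
Sdha, 55 bases before the start: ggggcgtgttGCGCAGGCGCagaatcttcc
Atp5g2, 42 bases before the start: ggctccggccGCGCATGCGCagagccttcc
The difference between groups can be set beside the match. The 17 genes with a match had a median log2 ratio of −0.05, with 6 higher and 11 lower, and the 47 with windows but no match −0.02, with 22 higher and 25 lower.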

How the data were processed

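Polyadenylated RNA of 4 libraries was sequenced on an Illumina MiSeq from RNA with an integrity number over 8, per the labels' protocols, with a stranded kit. Per the submitters' processing notes, the authors used TopHat and Cufflinks with build mm10; versions and annotation are not given in the sources used here. The deposited table holds FPKM per gene and library, the authors' log2 fold change, their test statistic (a score per gene, not used here), and their p-value and q-value. FPKM values are not counts, so limma 3.58.1 (R 4.3.3, trended variance) was run on log2(FPKM + 1) over the 11201 genes whose mean reached 1 FPKM, with Benjamini-Hochberg adjustment at 0.05. Ratios use the same pseudocount of 1, which understates changes of low genes. The fit was also run on simulated data with known changes. These were drawn with the same spread for every gene and no GC trend, so that run does not bear on the calls among the members. Shares within isoform pairs were compared by exact permutation test. Summaries used Python 3.11.15 and pandas 2.3.3. Transcript length and GC content came from GENCODE M21, promoters from RefSeq. Complex membership followed the symbol, except that Ndufa4 and Ndufa4l2 were counted in complex IV. Other genes of like level and length had a mean of 70.5 to 527 FPKM and a transcript of 433 to 2685 bases, ranges taken from the members. Depth was estimated from the steps of low FPKM values, as a single value per library without an error range. Named genes were fixed subunits, isoform pairs, the extremes and the highest level of each complex and list, and the genes nearest Cox6a2; others are said to be named after their values were seen. The members, lists and tests were chosen with earlier results of these data known. Alternatives were other pseudocounts, filters and scalings, each library left out, the libraries of each number alone, a block for replicate number, other summaries, long transcripts only, other complex membership and removal of the GC trend. The values of 1 gene of complex I are not reported here; it stayed in the counts and medians.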

Additional observations from a re-analysis of the deposited data

How the results depend on the processing

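The limma test called 0 members in every refit: with other pseudocounts, filters and scalings, the GC trend removed, each library left out, and replicate number as a block (0 with the replicate block). The groups share replicate numbers and library numbers (305 and 332), but no label ties a number to an animal, litter or day. Over all expressed genes, deviations of same-numbered libraries from their group means correlated at 0.21. With 2 libraries per group, the crossed pairs give the same value with the sign reversed (−0.21) by construction. The value therefore does not show whether the libraries were paired. The median over all members stayed between −0.06 and 0.02. With a library left out, the ranges were −0.063 to 0.019 for all members, −0.079 to 0.021 for complex I, −0.076 to −0.012 for II, −0.10 to 0.018 for III, −0.051 to 0.12 for IV and −0.091 to −0.0086 for V. The complex II median was −0.030 with upper quartile scaling, −0.013 in replicate 2 libraries alone and −0.016 with the GC trend removed. That of complex III was −0.015 in replicate 1 and −0.0023 in replicate 2 libraries alone, −0.083 from summed FPKM, 0.017 with transcripts of at least 500 bases and −0.016 with the GC trend removed. That of complex IV was −0.028 in replicate 2 libraries alone. Share differences (percentage points) ranged from −0.58 to 1.51 for Cox6a2, −1.14 to 1.76 for Cox8b and −0.27 to 0.37 for Cox7a1, with a library left out. Between replicate 1 and replicate 2 libraries alone they were 1.32 and −0.39 for Cox6a2, 1.37 and −0.75 for Cox8b, and 0.64 and −0.53 for Cox7a1. The causes were not tested. Depth limits the low isoforms, which rest on few fragments.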
